A study of Homo sapiens with 66 samples.

Results

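Total RNA of hnRNPC-targeted cells was compared with total RNA of CTRL cells in a wild-type clone of THP-1, an established human monocytic leukemia cell line. By their titles, 2 hnRNPC-targeted and 2 CTRL libraries made up the comparison, 4 of the 66 libraries of the series. The clone was 1 single-cell clone that carried a Cas9 transgene, obtained by limiting dilution. CTRL cells had been nucleofected with a nontarget gRNA alone. The hnRNPC-targeted cells had received the gRNA hnRNPC.1 together with the nontarget gRNA, and RNA of whole cells was taken on day 4. The methods describe no cloning or selection of targeted cells before RNA was taken, so cells with and without intact HNRNPC may have been measured together. The 2 replicates of a group were independent experiments by the study's methods. Cytosolic RNA of the same clone, total RNA of the clone with an additional ADAR gRNA, and day 4 total RNA of a STING-deficient clone (3 replicates a group, gRNA hnRNPC.2) were used for comparison.

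hnRNPC is a nuclear RNA-binding protein that covers uridine tracts of nascent transcripts. Alu elements are primate repeats, and an Alu in antisense orientation carries such a tract, which resembles the polypyrimidine tract of a 3′ splice site. hnRNPC competes there with the splicing factor U2AF2 and prevents inclusion of Alu sequence as an exon, and transcripts with such exons often become targets of nonsense-mediated decay (NMD). Neighbouring Alus of opposite orientation pair into double-stranded RNA, which ADAR edits from adenosine to inosine and which the sensor MDA5 can bind.

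The gRNA target is shown, since it defines the targeted cells, together with 7 uridine tracts of RNA regions that rose most, since hnRNPC binds such tracts. All coordinates are GRCh37. The target lay on the + strand at chr14:21702173-21702192, in exon 3 of 9 of HNRNPC, and the cut was at codon 55 of 293. Capitals mark the adjacent PAM.
hnRNPC.1: ctcattaacatactgaacgaAGG

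An editing cluster region (ECR) was a group of edited sites extended by the authors on both sides, so that it holds the repeat and its surroundings. The tracts below are the DNA of the transcribed strand in 7 of the 12 ECRs with the largest rise, with the T run in capitals. The run was the longest of 9 to 19 bases, and one followed by the letters GAGA was preferred. PSIP1 had a run that was not followed by them. Longer runs, not shown, were present in the ECRs of BRD8 (up to 30 bases), MARS1 (25) and RCN3 (23) and in the intergenic ECR (20). The other 5 ECRs of the 12, among them the one with the largest rise, had no run of at least 9 T on that strand.
BRD8 intron, chr5:137510265-137510294, − strand: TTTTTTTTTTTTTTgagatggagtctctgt
PPP6C intron, chr9:127937911-127937940, − strand: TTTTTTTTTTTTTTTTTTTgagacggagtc
MARS1 intron, chr12:57888112-57888141, + strand: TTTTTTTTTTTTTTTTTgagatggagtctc
RCN3 intron, chr19:50033755-50033784, + strand: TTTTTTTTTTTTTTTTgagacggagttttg
intergenic, chr16:18781951-18781980, − strand: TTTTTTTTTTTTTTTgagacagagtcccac
PSIP1 intron, chr9:15498485-15498514, − strand: TTTTTTTTTTTTTccatctgctgtcatttt
RAD51C intron, chr17:56807526-56807555, + strand: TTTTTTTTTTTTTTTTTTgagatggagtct

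The 4 libraries held 53396969 to 73873756 gene counts. Of 12 monocytic markers, 10 were above 10 CPM (counts-per-million, scaled by TMM factors) in every library, and 12 of 14 markers of other lineages were below 1 CPM, with a sum of 6.42 to 8.54 CPM against 2189 to 2370 CPM for the monocytic markers. Libraries of a pair differed by far more than counting noise, so that none was a duplicate.

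CTRL replicate 2 stood apart from the other 3 libraries. The standard deviation of the log2 difference of replicates across genes was 0.349 for the CTRL pair, against 0.217 for the hnRNPC-targeted pair and 0.165 to 0.269 for all 8 other pairs of the clone. Across genes, which are not independent replicates, the log2 difference of CTRL replicate 2 from CTRL replicate 1 correlated with transcript length (Spearman's rho 0.45). The same value was 0.04 and -0.16 for the hnRNPC-targeted libraries.

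Long mRNAs show the difference. POLR2A, the gene of the largest subunit of RNA polymerase II, had 51.5 and 236 CPM in the CTRL libraries and 43.2 and 41.9 CPM in the hnRNPC-targeted libraries. SRRM2, a scaffold of nuclear speckles, had 209 and 679 CPM against 190 and 147 CPM. SON, another speckle scaffold, had 242 and 771 CPM against 237 and 235 CPM. In each of them CTRL replicate 2 alone was high, and CTRL replicate 1 was close to the hnRNPC-targeted libraries. POLR2A was also high in the cytosolic libraries and in hnRNPC- and ADAR-targeted total RNA (149 and 193 CPM). It was highest in nuclear RNA of hnRNPC-targeted cells (287 and 360 CPM) and low in ADAR-targeted total RNA (34.1 and 32.5 CPM). CTRL replicate 2 also lay between CTRL replicate 1 and both hnRNPC-targeted libraries for 87 of the 130 ECRs that were higher in the hnRNPC-targeted STING-deficient clone, for 144 of the 205 genes that were lower there and for 78 of the 183 genes that were higher there, against 666 of all 2470 ECRs and 2729 of all 13650 genes. ECRs were matched to regions of the STING-deficient clone by their largest overlap. The features taken from that clone had been chosen for a response to hnRNPC targeting, unlike the set of all features. The shares over all features are therefore no measure of what spread between replicates alone would give. Why CTRL replicate 2 stood apart was not tested, and results are given with all 4 libraries and without CTRL replicate 2.

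**Figure D1:**
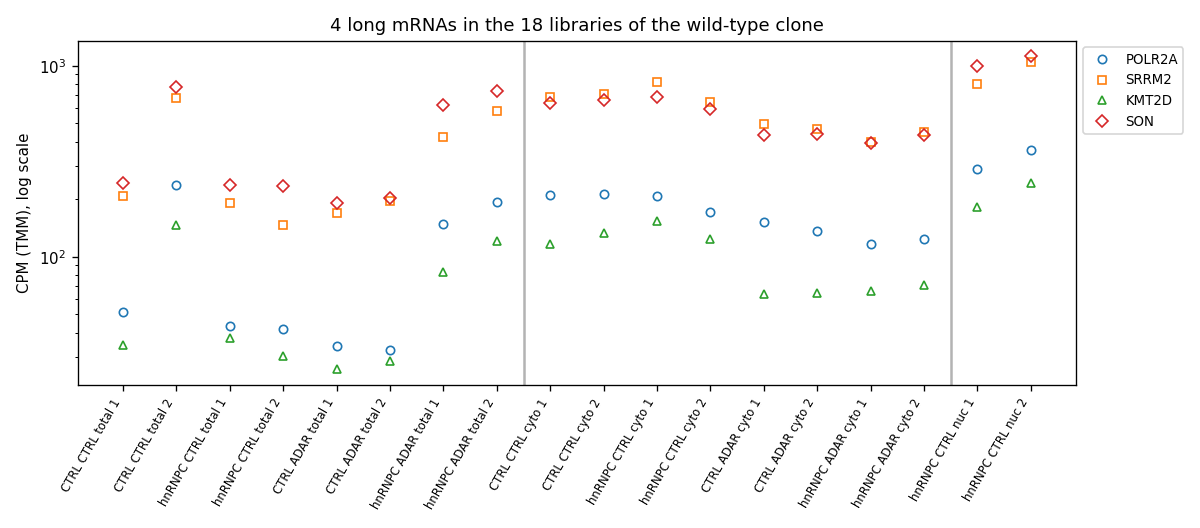
TMM-scaled CPM (log axis) of 4 long mRNAs in each of the 18 libraries of the wild-type clone, with vertical lines between total, cytosolic and nuclear RNA. In total RNA, CTRL CTRL replicate 2 and the 2 hnRNPC ADAR libraries were high, and POLR2A was 236 CPM in CTRL replicate 2 against 51.5 CPM in CTRL replicate 1.

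HNRNPC mRNA, the target, was lower in the hnRNPC-targeted libraries, by less than the called size. It had 910 and 581 CPM in the CTRL libraries and 433 and 493 CPM in the hnRNPC-targeted libraries. The groups did not overlap, and both CTRL libraries were higher, CTRL replicate 2 by little. The log2 fold change was -0.69 (SE 0.177), with an adjusted p of 0.0367 in edgeR's quasi-likelihood test. Without CTRL replicate 2 it was -0.96 (adjusted p = 0.00323 in edgeR), and without CTRL replicate 1 -0.33 (adjusted p = 0.147), so that the call rested on CTRL replicate 1. It was also lost without either hnRNPC-targeted library (adjusted p = 0.177 and 0.138 in edgeR). In the cytosol of the same clone HNRNPC had 1020 and 870 CPM in CTRL and 455 and 571 CPM in hnRNPC-targeted cells. In the STING-deficient clone, the 3 CTRL libraries had 725 to 817 CPM and the 3 hnRNPC-targeted libraries 336 to 355 CPM. The difference between the responses of the clones was 0.48 (SE 0.202) and did not pass the test (edgeR adjusted p = 0.228). The clone, the gRNA and the study changed together and cannot be told apart. A frameshift can leave mRNA in place, so mRNA does not measure the edited share of the cells, and in bulk RNA fewer cells with the mRNA and less mRNA per cell cannot be told apart.

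An ECR placed in an HNRNPC intron by its edited sites, chr14:21699605-21702155, followed the mRNA. It ended next to the gRNA target, chr14:21702173-21702192, and an effect of the cut on its count was not tested. It had 158 and 93.7 CPM of gene counts in CTRL and 61.7 and 73.7 in hnRNPC-targeted libraries. Its log2 fold change was -0.89 (edgeR adjusted p = 0.00817), below the called size, and -1.21 (edgeR adjusted p = 0.000278) without CTRL replicate 2.

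The study had measured the mRNA of IARS2, NUCKS1, MFSD1 and EIF3D, as transcripts with an Alu exon, using probes that avoided the intron with this exon. The mRNAs of these 4 genes were lower in both hnRNPC-targeted libraries than in both CTRL libraries, and 3 of the 4 passed the test at any fold change, against 3.03% of all 13650 tested genes. None reached a 2-fold difference. IARS2, a mitochondrial isoleucyl-tRNA synthetase, had 277 and 231 CPM in CTRL and 143 and 177 CPM in hnRNPC-targeted libraries (log2 fold change -0.67, edgeR adjusted p = 0.0167). NUCKS1, a chromatin-associated phosphoprotein, had 960 and 828 CPM against 544 and 607 CPM (-0.64, edgeR adjusted p = 0.018). MFSD1, a lysosomal transporter, had 404 and 294 CPM against 203 and 250 CPM (-0.63, edgeR adjusted p = 0.0376). The libraries of both groups stood apart for these 3 genes. EIF3D, a subunit of the translation initiation factor eIF3, had 443 and 313 CPM against 251 and 310 CPM (-0.43, edgeR adjusted p = 0.113), where CTRL replicate 2 was next to hnRNPC-targeted replicate 2. When CTRL replicate 2 was left out, all 4 genes passed the test at any fold change, against 1.45% of all genes. In the STING-deficient clone the log2 fold change was -1.73 for IARS2 and -1.49 for EIF3D. The difference between clones passed the test for IARS2 (1.05, edgeR adjusted p = 0.0301) and did not for EIF3D (1.05, edgeR adjusted p = 0.0612). The study chose these genes on its own data, so they are no independent evidence of a direction.

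**Figure D2:**
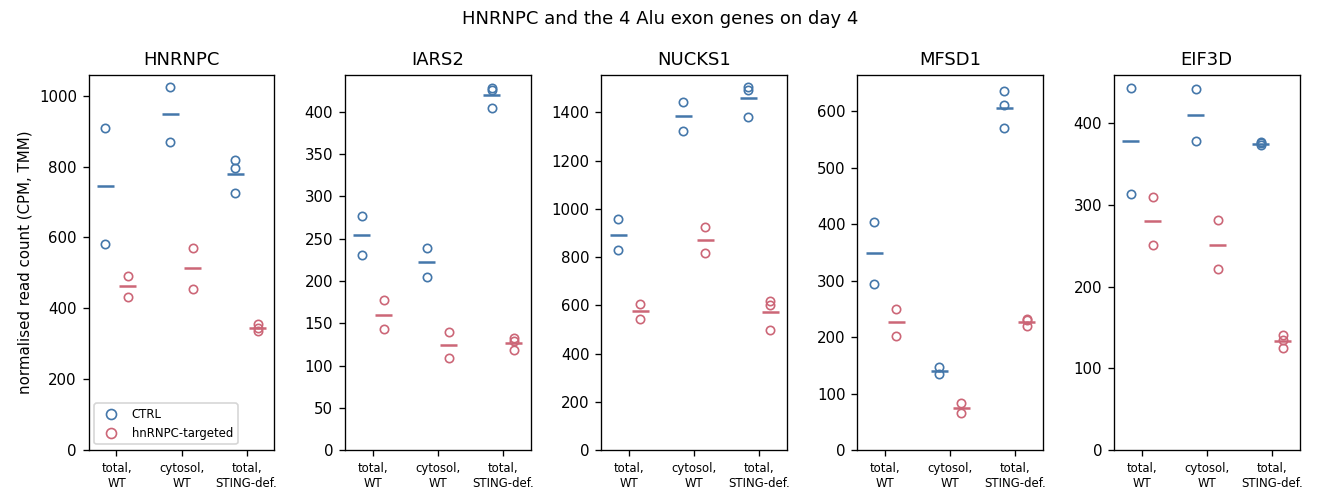
TMM-scaled CPM of HNRNPC and the 4 Alu exon genes in each CTRL and hnRNPC-targeted library on day 4 (circles, with a bar at the group mean), for total and cytosolic RNA of the wild-type (WT) clone and total RNA of the STING-deficient clone, which was scaled in a separate table. All genes were lower in hnRNPC-targeted libraries of each set, with HNRNPC at 433 and 493 CPM against 910 and 581 CPM in total RNA of the wild-type clone.

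A gene or ECR was called when it differed at least 2-fold (absolute log2 fold change of at least 1) at an adjusted p of at most 0.05. Of 13650 genes, 38 were higher (0.278%) and 62 lower (0.454%) in hnRNPC-targeted cells. At any fold change, 284 genes were higher and 414 lower. With CTRL replicate 2 left out, 30 genes were higher and 17 lower. The fits shared 19 higher genes, 50% of the 38 and 63.3% of the 30, and 9 lower genes, 14.5% of the 62 and 52.9% of the 17. The groups did not overlap for 5801 genes (42.5%), so separation of the 4 libraries by itself is common. The fit takes the spread between replicates from all 18 libraries of the clone. With these 4 libraries alone, edgeR called 0 genes (1968 had an unadjusted p under 0.05).

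The higher genes were 19 protein-coding genes, 14 lncRNA genes, 2 snRNA genes, 2 processed pseudogenes and 1 other pseudogene. TLCD3B, a TLC domain protein, had 2.73 and 3.61 CPM in CTRL and 10.1 and 9.60 CPM in hnRNPC-targeted libraries (log2 fold change 1.64, SE 0.22, edgeR adjusted p = 0.00108). RCN3, a calcium-binding protein of the endoplasmic reticulum, had 3.42 and 3.71 CPM against 9.98 and 8.70 CPM (1.39, SE 0.184, edgeR adjusted p = 0.00108). Both genes were clearly separated between the groups, with and without CTRL replicate 2. SYTL2, an effector of Rab27 in vesicle transport, had 2.40 and 2.22 CPM against 6.26 and 5.21 CPM (1.31, SE 0.185, edgeR adjusted p = 0.00144). LOXL4, a lysyl oxidase-like enzyme, had 2.54 and 2.32 CPM against 6.77 and 4.83 CPM (1.25, SE 0.228, edgeR adjusted p = 0.00695), and was at an adjusted p of 0.0531 in edgeR without CTRL replicate 2. In TIMM17B, a subunit of the protein import machinery of the inner mitochondrial membrane, CTRL libraries had 6.89 and 11.6 CPM and hnRNPC-targeted libraries 19.04 and 22.8 CPM (1.18, edgeR adjusted p = 0.00556). TIMM17B had a log2 fold change of 0.07 in the cytosol (edgeR adjusted p = 0.915), and the difference between cytosolic and total RNA did not pass the test.

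Of the lncRNA genes, CCNY-AS1 had 0.816 and 0.971 CPM in CTRL and 2.67 and 2.66 CPM in hnRNPC-targeted libraries (log2 fold change 1.58, edgeR adjusted p = 0.0036). WDR5B-DT, transcribed away from WDR5B, had 1.08 and 1.79 CPM against 3.44 and 3.71 CPM (1.32, edgeR adjusted p = 0.0167). Both were separated between the groups, as were DNAJC27-AS1 (1.32) and C10orf95-AS1 (1.21), and all 4 were also called without CTRL replicate 2. The strand setting of the gene counts is not given in the sources used here, so that reads of an antisense gene and of its partner may not be told apart. ENSG00000218565 had 1.13 and 0.624 CPM in CTRL against 2.27 and 2.21 CPM (1.34) and was not called without CTRL replicate 2 (edgeR adjusted p = 0.145). The snRNA genes are uncertain, since they have near-identical copies. RNU1-1, a gene of the U1 snRNA, had 2.29 and 1.35 CPM against 14.4 and 6.77 CPM (2.53, edgeR adjusted p = 0.00706). RNU2-48P had 1.65 and 1.46 CPM against 3.47 and 3.82 CPM (1.23, edgeR adjusted p = 0.0456), and neither was called without CTRL replicate 2.

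The 38 higher genes were followed in other comparisons, with no library in common. The cytosolic and ADAR-targeted libraries were part of the fit that set the spread, the filter and the factors of the calls, and the STING-deficient clone was not. In cytosolic RNA all 38 had a log2 fold change over 0, with a median of 0.93 (all genes -0.05), and 15 were called higher against 0.256% of all genes. In the STING-deficient clone 35 of them were tested, all 35 were over 0 and 28 were called higher, against 1.44% of all genes, with a median of 1.24. With ADAR targeting in both groups 32 were over 0 and 8 were called higher, against 1.71% of all genes. TLCD3B had a log2 fold change of 2.41 and SYTL2 of 2.23 in the STING-deficient clone. IL21R, the receptor of interleukin-21 and chosen after its values were seen, was at 1.08 in total RNA of the wild-type clone and at 2.20 in the STING-deficient clone.

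The lower genes rested for the most part on CTRL replicate 2. Over the 62 genes, CTRL replicate 1 was at a median of 1.59 times and CTRL replicate 2 at 2.99 times the mean of the hnRNPC-targeted libraries, and for 30 genes CTRL replicate 2 was more than 2 times CTRL replicate 1 (269 of all 13650 genes). Their median transcript length was 5626 bases, against 3437 for all tested genes. In the cytosol 10 were called lower, against 0.227% of all genes, and 7 of the 62 had a log2 fold change over 0. In the STING-deficient clone, 6 of the 52 tested were called lower, against 1.61% of all genes. With ADAR targeting in both groups 1 was called lower, against 0.344% of all genes, and 18 were called higher, against 1.71%. POLR2A was there at 149 and 193 CPM with the hnRNPC gRNA and at 34.1 and 32.5 CPM without it. Long mRNAs were thus high on the hnRNPC-targeted side of that comparison, and the part of this in these calls was not tested.

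The lowest by fold change included POLR2A (-1.76, edgeR adjusted p = 0.0219), which was at -0.26 (edgeR adjusted p = 0.525) without CTRL replicate 2. HIVEP3, a zinc finger transcription factor, had 23.9 and 93.3 CPM in CTRL and 19.2 and 17.99 CPM in hnRNPC-targeted libraries (-1.66, and -0.35 without CTRL replicate 2). ATIC, an enzyme of purine synthesis, had 22.7 and 63.2 CPM against 15.7 and 13.0 CPM (-1.58, and -0.65 without CTRL replicate 2). In these genes the groups did not overlap, and CTRL replicate 2 was more than 2 times the other CTRL library. The same held for BCORL1, TPP1, WNT7B, PLBD2, ZNF827 and the pseudogene SHMT1P1, whose log2 fold changes of -1.59 to -1.43 were between -0.72 and -0.28 without CTRL replicate 2. OLMALINC, an lncRNA, was different, with 15.3 and 12.6 CPM in CTRL against 6.76 and 3.02 CPM (-1.51, edgeR adjusted p = 0.0469), and -1.63 (edgeR adjusted p = 0.12) without CTRL replicate 2. ENSG00000261799 had 1.88 and 2.76 CPM against 0.756 and 0.949 CPM (-1.44, and -1.12 without CTRL replicate 2, edgeR adjusted p = 0.0601).

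The 9 genes called lower in both fits included SLCO4C1, HNRNPCP6, EBF3, PDK1, DHCR7, PRMT3, BNIP3 and TMEM135, named here after their values were seen, except SLCO4C1 and DHCR7. SLCO4C1, an organic anion transporter, had 2.48 and 2.71 CPM in CTRL and 0.875 and 0.524 CPM in hnRNPC-targeted libraries (-1.89, SE 0.277, edgeR adjusted p = 0.0017). PDK1, which inhibits the pyruvate dehydrogenase complex, had 31.7 and 37.8 CPM against 16.2 and 14.2 CPM (-1.19, SE 0.122, edgeR adjusted p = 0.00018). SLCO4C1 and PDK1 had similar CTRL libraries, well above both hnRNPC-targeted libraries. EBF3, a transcription factor, had 7.73 and 8.12 CPM against 3.32 and 3.58 CPM (-1.20, edgeR adjusted p = 0.000785). PRMT3, an arginine methyltransferase, had 31.9 and 25.9 CPM against 11.5 and 15.9 CPM (-1.08, edgeR adjusted p = 0.00144). BNIP3, a receptor for mitophagy, had 62.0 and 51.7 CPM against 32.3 and 21.9 CPM (-1.07, edgeR adjusted p = 0.00481). HNRNPCP6 is a processed pseudogene of HNRNPC and may take reads from it. All 9 were also called lower in the cytosol, against 0.227% of all genes, and 5 of the 8 tested in the STING-deficient clone, against 1.61%.

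**Figure D3:**
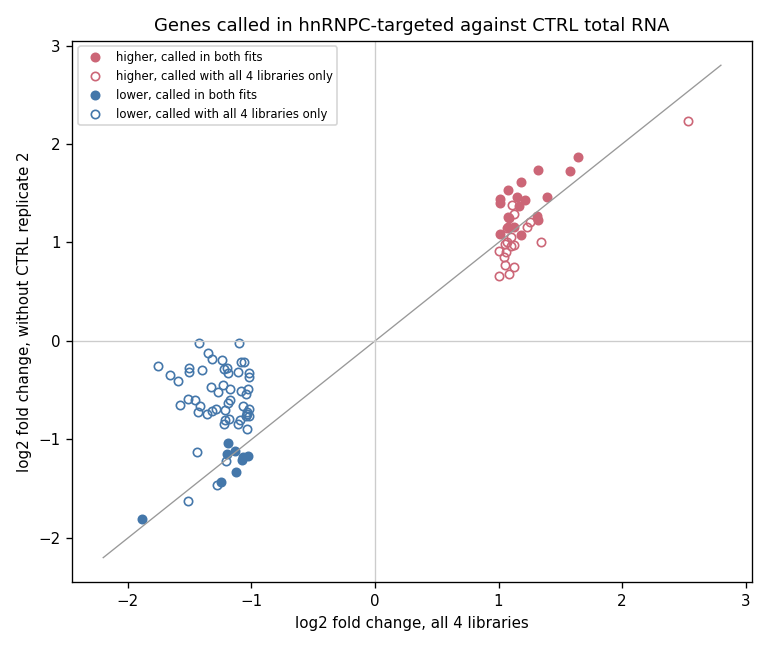
Log2 fold change of hnRNPC-targeted against CTRL total RNA with all 4 libraries (x axis) and without CTRL replicate 2 (y axis), for the 38 higher and 62 lower genes, filled where called in both fits (19 and 9). The line marks equal values, and most lower genes sit above it, near 0 on the y axis.

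Of 18 tested cholesterol synthesis genes, 7 were lower at an adjusted p of at most 0.05 at any fold change, against 3.03% of all genes, 1 was called lower, against 0.454%, and none was higher. The list had a median log2 fold change of -0.64 against 0.03 for all genes. In 16 of 18, both hnRNPC-targeted libraries were below both CTRL libraries (2860 of all 13650 genes were). DHCR7, the enzyme of the last step, had 51.4 and 36.3 CPM in CTRL and 24.3 and 15.9 CPM in hnRNPC-targeted libraries (-1.12, edgeR adjusted p = 0.0287). HMGCS1, which makes HMG-CoA, had 102 and 89.9 CPM against 62.2 and 41.2 CPM (-0.90, edgeR adjusted p = 0.00698). MVK, mevalonate kinase, had 36.9 and 21.1 CPM against 18.4 and 11.6 CPM (-0.96, edgeR adjusted p = 0.0571). CTRL replicate 2 was nearer to the hnRNPC-targeted libraries than CTRL replicate 1 in each. SREBF2, the transcription factor of the pathway, differed in this respect, with 220 and 282 CPM against 162 and 118 CPM (-0.84, edgeR adjusted p = 0.0139). In the fit without CTRL replicate 2 the median was -0.73, 6 genes were lower at any fold change, against 1.45% of all genes, and 2 were called, DHCR7 and MVK, against 0.125%.

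Type I IFN-stimulated genes (ISGs), the readout of double-stranded RNA sensing in the study, had higher values without passing the test in most cases. Of 46 tested ISGs, 1 was called higher, against 0.278% of all genes, 2 were higher at any fold change, against 2.08%, and none was lower. The median log2 fold change was 0.48. In 29 of 46 both hnRNPC-targeted libraries were above both CTRL libraries, against 2941 of all 13650 genes. The called gene, OASL, an OAS-like protein that promotes RIG-I signaling, had 7.62 and 6.07 CPM in CTRL and 15.8 and 13.7 CPM in hnRNPC-targeted libraries (1.10, edgeR adjusted p = 0.029). IFIT2, an antiviral tetratricopeptide protein, had 28.2 and 19.5 CPM against 52.5 and 38.8 CPM (0.94, edgeR adjusted p = 0.0414). Both were separated between the groups, but OASL was not called without CTRL replicate 2 (0.97, edgeR adjusted p = 0.182), and no ISG passed the test in that fit. In others the hnRNPC-targeted replicates were unequal. IFIT1, an antiviral RNA-binding protein, had 20.2 and 11.2 CPM against 43.5 and 24.1 CPM (1.10, edgeR adjusted p = 0.0726). MX1, an antiviral GTPase, had 76.6 and 56.0 CPM against 174 and 98.3 CPM (1.04, edgeR adjusted p = 0.0962). In IFI44L hnRNPC-targeted replicate 1 alone stood out, with 10.6 and 9.17 CPM against 29.6 and 11.7 CPM (1.06, edgeR adjusted p = 0.183).

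Of 12 noncoding host genes known to be NMD-sensitive, 2 were higher at any fold change, against 2.08% of all genes, and none was called. The median was 0.36, and 9 of 12 were higher in both hnRNPC-targeted libraries, against 2941 of all 13650 genes. EPB41L4A-AS1 had 13.0 and 13.0 CPM in CTRL against 16.9 and 20.4 CPM (0.52, edgeR adjusted p = 0.0282). SNHG7 had 54.5 and 47.5 CPM against 64.8 and 79.3 CPM (0.50, edgeR adjusted p = 0.0282). Neither passed the test without CTRL replicate 2, where 0.425% of all genes were higher at any fold change. Of 16 NMD factors none passed the test.

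No stress or growth arrest gene was called, and some were higher at any fold change, against 2.08% of all genes. Of 17 integrated stress response genes, 1 was higher, DDIT3, a proapoptotic transcription factor, with 14.7 and 11.2 CPM in CTRL against 20.1 and 23.5 CPM (0.75, edgeR adjusted p = 0.0381). Of 10 CDK inhibitor and growth arrest genes, 3 were higher at any fold change, GADD45A (0.59), CDKN1A (0.52) and SESN1 (0.51). CDKN1A, the p21 gene, had 128 and 134 CPM in CTRL and 198 and 177 CPM in hnRNPC-targeted libraries, and none of these 4 genes passed without CTRL replicate 2. At any fold change, 3.03% of all genes were lower. Of 27 replication and mitosis genes 1 was lower, and of 23 myeloid identity genes 1 was lower, at any fold change. The 20 tested genes of the hnRNP family had a median log2 fold change of -0.14, and 1 was called lower, against 0.454% of all genes, and 0 without CTRL replicate 2. Of 14 factors that bind 3′ splice sites or uridine tracts, 2 were lower at any fold change. Of 13 NF-kB and cytokine genes, 1 was higher at any fold change, TNFAIP2 (0.44). CCL2, a monocyte chemokine, had 0.188 and 0.642 CPM in CTRL against 0.786 and 0.878 CPM (1.02, edgeR adjusted p = 0.126) and was called without CTRL replicate 2 (2.15, edgeR adjusted p = 0.0163). Of 453 ZNF genes, 33 were higher and 5 lower at any fold change, against 2.08% higher in all genes. Without CTRL replicate 2, 7 were higher, against 0.425% of all genes, and 0 lower. ZNF707 was called, with 4.94 and 5.01 CPM in CTRL against 10.7 and 11.1 CPM (1.13, edgeR adjusted p = 0.000731), well separated in all libraries.

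**Figure D4:**
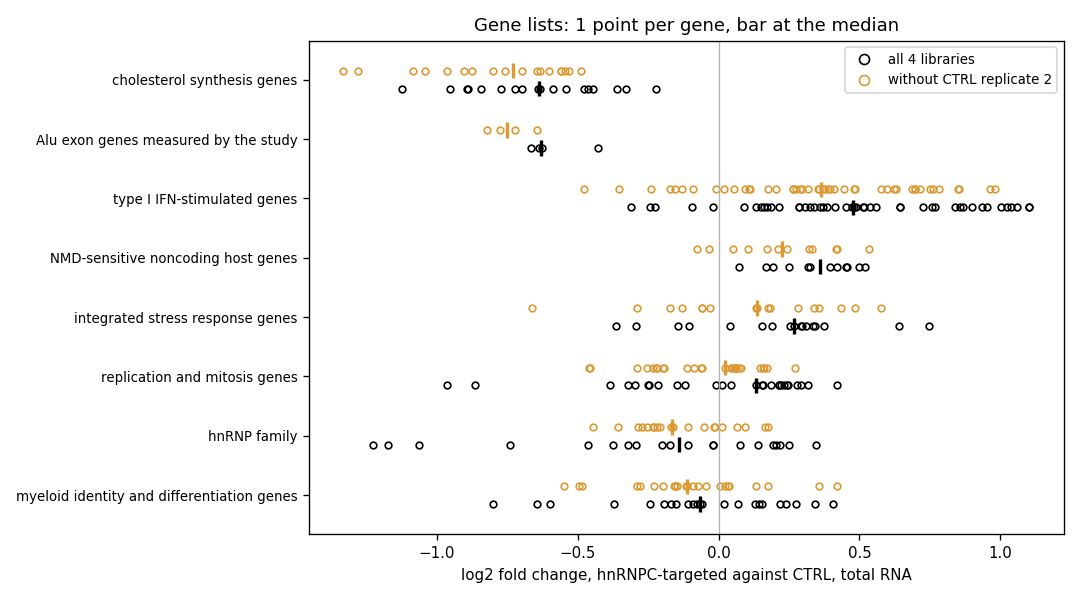
Log2 fold change of hnRNPC-targeted against CTRL total RNA for the tested members of 8 gene lists, 1 circle per gene and a bar at the median, with all 4 libraries (black) and without CTRL replicate 2 (orange). Cholesterol synthesis genes are all below 0 (median -0.64) and ISGs mostly above (median 0.48).

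Of 2470 tested ECRs, 38 were higher (1.54%) and 18 lower (0.729%). Leaving CTRL replicate 2 out, 59 were higher (2.39%) and 6 lower (0.243%), and the fits shared 36 higher (94.7% of 38 and 61% of 59) and 1 lower (5.56% of 18 and 16.7% of 6). Without CTRL replicate 1 the balance turned, with 33 higher and 63 lower. With these 4 libraries alone edgeR called 3 higher and 0 lower (382 had an unadjusted p under 0.05). Over all ECRs the median log2 fold change was -0.01, and 545 were higher and 622 lower in both hnRNPC-targeted libraries than in both CTRL libraries. The groups thus did not overlap for 1167 ECRs (47.2%). ECR values are CPM of gene counts. By the study's methods, an editing site could be kept on the libraries of a single treatment. Other hnRNPC-targeted libraries also counted in the filter on average CPM. An ECR could thus enter the set because of its reads in hnRNPC-targeted cells, which would favour higher over lower ECRs. The size of this effect was not tested.

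The largest difference was in an intergenic ECR, chr9:69709949-69712095, with 0.298 and 0.330 in CTRL and 3.01 and 3.29 in hnRNPC-targeted libraries (log2 fold change 3.32, SE 0.30, edgeR adjusted p = 1.74e-06). The ECR in BRD8, which encodes a bromodomain protein of the NuA4 acetyltransferase complex, was at chr5:137507963-137512562 and had 1.38 and 2.72 against 12.9 and 8.75 (2.41, SE 0.307, edgeR adjusted p = 0.000127). In PPP6C, the catalytic subunit of protein phosphatase 6, the ECR at chr9:127936079-127938109 had 0.392 and 0.850 against 3.44 and 2.85 (2.35, SE 0.395, edgeR adjusted p = 0.000941). In each of these ECRs both hnRNPC-targeted libraries stood well above both CTRL libraries.

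The ECR of MARS1, the cytosolic methionyl-tRNA synthetase, at chr12:57886808-57888929 had 0.565 and 0.937 in CTRL against 3.23 and 2.58 (1.96, edgeR adjusted p = 0.00197). It was at 0.09 (edgeR adjusted p = 0.924) in cytosolic RNA, where PPP6C was at 2.44 and BRD8 at 2.26. The difference between its responses in cytosolic and total RNA was -1.87 and did not pass the test (edgeR adjusted p = 0.944). The ECR of COMMD4 at chr15:75633245-75638129 had 4.17 and 3.66 against 13.3 and 14.4 (1.82, edgeR adjusted p = 0.000178). In RCN3, whose mRNA was also higher, the ECR at chr19:50033354-50036954 had 0.329 and 1.13 against 3.05 and 1.66 (1.71, edgeR adjusted p = 0.0152), with CTRL replicate 2 close to hnRNPC-targeted replicate 2. The intergenic ECR chr16:18781831-18788703 had 1.25 and 1.63 against 4.55 and 4.69 (1.68, edgeR adjusted p = 0.000178). The ECRs in RAD51C, a recombination protein (1.495), in PSIP1, a chromatin protein known as LEDGF (1.53), and in the lncRNA LINC00963 (1.48), and intergenic ECRs on chromosomes 2 (1.57) and 19 (1.54), made up the rest of the 12. All 12 were called without CTRL replicate 2 as well, with log2 fold changes of 1.69 to 3.41.

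Of the 38 higher ECRs, 24 were in introns, 10 were intergenic (26.3%, against 12.1% of all tested), 3 were in 3′ UTRs and 1 in a noncoding exon. Chromosome 19 held 9 of its 256 tested, chromosome 9 held 7 of 112 and chromosome 18 held 3 of 28, against 1.54% of all ECRs. The 3 ECRs of chromosome 18 were neighbours on both strands. On chromosome 19, neighbours on the same strand were 2 intergenic ECRs, the ECRs in ZNF440 and the ECRs in ZNF726. On chromosome 9, chr9:42235947-42238153 and chr9:70630773-70632979 had the same length (2207 bases) and near-equal GC content (35.4% and 35.3%). Their sequences were not compared. ECRs of such groups may not be independent. A tested host gene was available for 26 ECRs, with a median log2 fold change of 0.17 of the host mRNA. The ECRs had been chosen for a log2 fold change of at least 1, so their distance from the host is a description. The BRD8 mRNA was at 0.35, PPP6C at -0.26 and MARS1 at 0.03.

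Sequence was compared with all tested ECRs of known strand. A run of at least 9 T followed by GAGA was found on the transcribed strand in 20 of the 38 higher ECRs (52.6%), against 38.1% of all 2356 ECRs. On the opposite strand it was in 11 (28.9%), against 38.6% of all. Among the 17 lower ECRs of known strand it was on the transcribed strand in 3 (17.6%). The letters that follow the T run of PPP6C above, taken alone, were on the transcribed strand in 3 of the 38 higher ECRs (7.89%), against 12.7% of all, and on the opposite strand in 3 (7.89%), against 13.4%. A run of at least 9 T without regard to what follows was in 68.4% of the higher and in 72.2% of all ECRs. These shares are descriptions of regions that differ in length and number of repeats.

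The 38 higher ECRs were followed in the same other comparisons, of which the cytosolic and ADAR-targeted libraries had again been part of the fit. In cytosolic RNA all 38 were over 0 and 24 were called higher, against 1.90% of all ECRs. With ADAR targeting in both groups, all 38 were over 0 and 23 were called, against 6.60%. In the STING-deficient clone 35 were tested, all 35 were over 0 and 32 were called higher, against 5.38%, with a median of 1.90. The ECR with the largest difference, chr9:69709949-69712095, had no tested counterpart there, nor had chr2:92312197-92314267 and the ECR in ZNF808. The log2 fold change there was 3.99 for BRD8, 4.73 for PPP6C and 3.12 for MARS1, and differences between the clones were not tested for ECRs. Each ECR was matched to the region of that clone with the largest overlap, so that one region can serve several ECRs. Of the 130 ECRs whose matched region was called higher in that clone, 32 were called higher in total RNA of the wild-type clone, against 1.54% of all ECRs. Their median log2 fold change was 0.63 with all 4 libraries and 0.92 without CTRL replicate 2, against 1.39 in the STING-deficient clone.

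The 18 lower ECRs rested mostly on CTRL replicate 2, with a median of -1.17 that was -0.35 without it. The ECR in the 3′ UTR of PLEKHG2, a guanine nucleotide exchange factor, at chr19:39917204-39919232 had 1.36 and 7.84 in CTRL against 1.17 and 0.935 (-2.12, edgeR adjusted p = 0.0171), and -0.36 (edgeR adjusted p = 0.74) without CTRL replicate 2. In SOGA1 (-1.74), in both ECRs of LINC02169 (-1.71 and -1.53), in ENSG00000284989 (-1.32) and in DOCK8 (-1.25), CTRL replicate 2 was more than 2 times CTRL replicate 1 as well. None of these 6 was called without CTRL replicate 2. Of all 18, 2 were called lower in the cytosol, against 0.243% of all ECRs, and 2 of the 16 tested in the STING-deficient clone, against 1.28%. With ADAR targeting in both groups none was called lower, against 0.283% of all ECRs, and 11 were called higher, against 6.60%. Long mRNAs were high on the hnRNPC-targeted side of that comparison, and the part of this in these calls was not tested. The 1 ECR called lower in both fits, chosen after its values were seen, was chr3:58125889-58127930 with 5.30 and 5.15 in CTRL against 2.22 and 2.51 (-1.14, edgeR adjusted p = 0.00069), and its strand was not assigned.

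**Figure D5:**
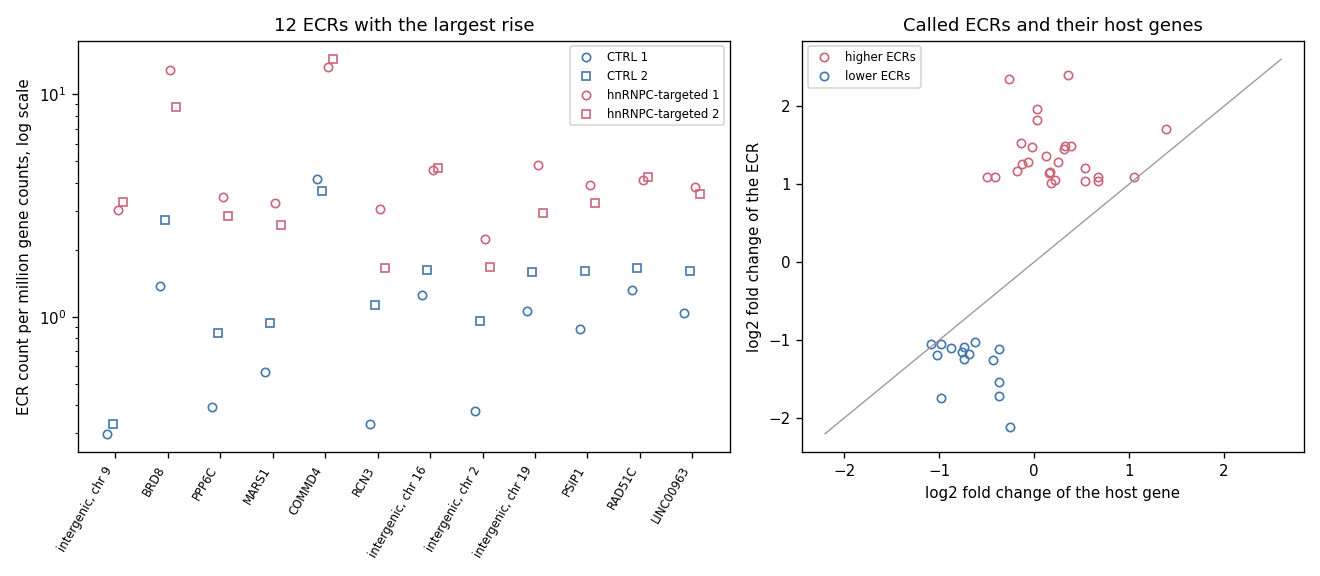
Left, CPM of gene counts (log axis) of the 12 ECRs with the largest rise in each of the 4 libraries, named by host gene or chromosome. Right, log2 fold change of each called ECR (y axis) against that of its host gene (x axis), with a line at equal values. Higher ECRs, chosen for their value on the y axis, are above the line with 1 near it, and their hosts have a median of 0.17.

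Editing of ECRs was compared as the share of reads with the edited base, over the sites of an ECR that had a value in every library. Summed over the 2260 ECRs tested below, 8.004% and 7.268% of reads were edited in CTRL and 8.153% and 8.097% in hnRNPC-targeted libraries. Counting error was small (the 95% Wilson interval of CTRL replicate 2 was 7.243 to 7.293%, which covers counting error only), and CTRL replicate 2 alone was low. The ADAR-targeted total RNA libraries were at 2.381 to 2.689%. Of 2260 ECRs with at least 100 reads in each library, edgeR's test of edited against all reads called 0 (140 had an unadjusted p under 0.05, 122 of them higher), and limma called 0 (78 with an unadjusted p under 0.05). Without CTRL replicate 2, 1 of 2299 was called (0.0435%), the ECR of BRD8. It had 0.676% and 6.92% edited reads in CTRL, of 444 and 1170 reads, and 10.7% in both hnRNPC-targeted libraries, of 5094 and 3352 reads. The CTRL libraries differed from each other by more than CTRL replicate 2 did from the hnRNPC-targeted libraries.

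The response was compared between settings by tests of the difference. Between cytosolic and total RNA, edgeR called 0 of 13650 genes, as did DESeq2 and limma-voom, and 417 had an unadjusted p under 0.05 in edgeR. Without CTRL replicate 1 it was 165 genes. Between cells with and without ADAR targeting, 662 genes (4.85%) differed, 511 with a higher and 151 with a lower log2 fold change under ADAR targeting, and there were 134 without CTRL replicate 2, 1693 without CTRL replicate 1 and 9 without hnRNPC-targeted replicate 2. In the comparison by ADAR targeting, long mRNAs were high in CTRL replicate 2 and in both hnRNPC- and ADAR-targeted libraries. The part of this was not tested beyond leaving CTRL replicate 2 out. Between the wild-type and the STING-deficient clone 9 of 13429 genes (0.067%) differed. This rested on single libraries, with 549 genes without CTRL replicate 1, 26 without hnRNPC-targeted replicate 1 and 0 without hnRNPC-targeted replicate 2 in edgeR (1197 with an unadjusted p under 0.05). CDKN1A was at 0.49 in the wild-type and at 2.01 in the STING-deficient clone in that fit (difference -1.52, SE 0.18, edgeR adjusted p = 0.0244). PRMT3 was lower in both clones, at -1.10 and -2.45 (difference 1.34, SE 0.195, edgeR adjusted p = 0.0301).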

How the data were processed

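The authors aligned reads of ribosomal RNA-depleted, stranded libraries to GRCh37 with STAR 2.5.4a and deposited counts of uniquely mapped reads, raw and without pooling, per gene (featureCounts over exons), per ECR, and per editing site (edited and all reads). ECR and host locations were assigned here with a more recent annotation lifted to GRCh37. Members, gene lists and alternatives were chosen with earlier results of these data known. Genes and ECRs with an average log2 CPM of at least 0.5 and 4.5 were kept. edgeR 4.0.16 (R 4.3.3) fitted quasi-likelihood models over the 18 libraries of the wild-type clone, with 1 coefficient per group and TMM factors from all genes, used for ECRs too. P-values were adjusted by Benjamini-Hochberg over all genes or ECRs. An SE is the absolute log2 fold change over the square root of F. Editing was tested with edgeR on edited and unedited reads, for ECRs with at least 100 reads. Named were HNRNPC, the 12 called genes and 12 called ECRs with the largest and the 12 genes and 6 ECRs with the smallest log2 fold change (genes with at least 10 counts in each library of the higher group), the leading members of lists, and 6 genes for each difference. Some items that this rule names are not reported here. Alternatives used DESeq2 1.42.0, limma 3.58.1, other factors, filters and sets of libraries. Scripts were tested on simulated data. Total gene counts of 53396969 to 73873756 limit precision less than 2 replicates a group do.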

Additional observations from a re-analysis of the deposited data

Results flagged for a closer look

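Differences between settings of the response to hnRNPC targeting met the threshold for 9 genes between the clones and for 662 genes by ADAR targeting. All are differences of log2 fold changes from edgeR, and each was tested itself. No group of 4 or more libraries was in the comparison, so single libraries were not tested for standing apart.

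Between the clones, counted as wild-type minus STING-deficient, the 6 genes with the largest difference were LINC00654 (-4.64), CDKN1A (-1.52), SLC29A4 (1.47), HAGHL (1.40), PRMT3 (1.34) and HBEGF (-1.25). LINC00654 had 1, 3 and 0 counts in the CTRL libraries of the STING-deficient clone against 42 to 60 in its hnRNPC-targeted libraries, so the fitted value depends on the prior count. The other 3 genes called were DVL1 (1.11), NCLN (1.25) and IARS2 (1.05). Without CTRL replicate 2, CDKN1A (-1.45, adjusted p = 0.0308 in edgeR) and LINC00654 (-4.63, adjusted p = 0.0308 in edgeR) were called, and the other 4 of the 6 had values of 1.26 for HAGHL, -1.26 for HBEGF, 1.48 for SLC29A4 and 1.24 for PRMT3 with adjusted p from 0.0546 to 0.109 in edgeR. Without hnRNPC-targeted replicate 2 edgeR called 0 of these differences (1197 had an unadjusted p under 0.05). The clone, the gRNA and the study cannot be told apart in these differences.

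By ADAR targeting, the 6 largest differences were RNU1-3 (-11.02), POLR2A (4.11), SHMT1P1 (3.50), MTND4P12 (3.41), ATN1 (3.34) and KMT2D (3.34). RNU1-3, which has near-identical copies, had 0.0784 and 0.121 CPM in CTRL, 7.72 and 0.184 CPM in hnRNPC-targeted, 5.32 and 3.82 CPM in ADAR-targeted and 0.0169 and 0.151 CPM in hnRNPC- and ADAR-targeted libraries. Without CTRL replicate 2 the difference was 2.64 for POLR2A, 2.33 for SHMT1P1 and 1.96 for KMT2D, all called, and 1.73 for MTND4P12 and 1.62 for ATN1, not called. RNU1-3 was then at -11.36. CTRL replicate 2 and both hnRNPC- and ADAR-targeted libraries are those with high long mRNAs, and the part of this in the 662 genes was not tested beyond leaving CTRL replicate 2 out.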

How the results depend on the processing

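No log2 fold change of HNRNPC or of a named gene or ECR changed its sign, but the balance of higher and lower calls turned with single libraries. The counts of called genes were 165 higher and 246 lower without a filter, 14 and 15 with the 8 total RNA libraries, and 0 and 0 with the 4 libraries (1968 at an unadjusted p under 0.05). With 8 libraries 8 ECRs were lower, with 4 libraries 3 were higher and 0 lower, and with limma-voom 11 were lower. HNRNPC was at -0.71 with 8 and -0.70 with 4 libraries, neither past the threshold. Leaving out 1 library at a time gave 13 to 99 higher and 7 to 329 lower genes, 29 to 59 higher and 6 to 63 lower ECRs, 0 to 1 ECRs with a called edited share, and -0.96 to -0.33 for HNRNPC. The lone library of a group was then assumed to vary like the other groups. The highest gene counts came without CTRL replicate 1 (99 and 329) and the lowest without hnRNPC-targeted replicate 2 (13 and 7), with 30 and 17 without CTRL replicate 2 and 20 and 58 without hnRNPC-targeted replicate 1. For ECRs it was 33 and 63 without CTRL replicate 1, 59 and 6 without CTRL replicate 2, 29 and 21 without hnRNPC-targeted replicate 1 and 32 and 7 without hnRNPC-targeted replicate 2. Genes that differed between clones numbered 343 without a filter, 125 with DESeq2, 0 with the replicate block, and 0 to 549 with a library left out. Those that differed by ADAR targeting were 1257 without a filter and 9 to 1693 with a library left out, and those between cytosolic and total RNA 109 and 0 to 165. The share of higher genes among called genes was 38% in the report and 31.7% with RLE factors, 29.6% with DESeq2 and 33.3% with TMM factors on the genes kept, the last chosen after seeing the data. Of 775 values of the 61 named genes and ECRs under the alternatives, 569 were still called, and 585 kept an adjusted p of at most 0.05 whatever their fold change. Libraries were not taken as paired by their replicate numbers, since the differences of replicates 1 and 2 of the 2 groups correlated at -0.21 over 13650 genes. With the replicate block, 45 genes were higher and 71 lower, and 39 and 19 ECRs. With crossed numbers, added after seeing the data, it was 45 and 67 genes, and 41 and 16 ECRs. The causes of these shifts were not tested.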
